A study of Canis lupus familiaris with 8 samples.

Results

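CMT-Star, a doxorubicin-resistant canine mammary carcinoma line, was compared with CMT-Stylo, the line it was derived from, in cells that had not been sorted. The comparison used 4 of the 8 arrays of the series, 2 labelled Stylo parent and 2 labelled Star parent, chosen by sample title. CMT-Stylo was labelled untreated. CMT-Star was obtained from CMT-Stylo by growth in rising doxorubicin over several months until it was resistant at 100 nM, and its arrays were labelled doxorubicin treated. The sources used here do not say whether the drug was in the medium at harvest. Both lines grew in DMEM with fetal bovine serum, and Cy3-labelled cRNA from total RNA was hybridised to 1-colour arrays with 43603 gene probes. The other 4 arrays hold cells of the same lines sorted for CD44, low CD24 and aldehyde dehydrogenase activity, called Stylo CSC and Star CSC for cancer stem cell. As a model, the comparison holds 1 sensitive line and 1 resistant line selected from it. The labels do not state separate cultures for the 2 arrays of a group, so the spread behind each p-value is that between arrays and may be technical only. Their number limits the precision of each value.

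Doxorubicin is an anthracycline that intercalates into DNA and traps topoisomerase II on broken strands. Its quinone ring is reduced by cellular enzymes, which can release reactive oxygen species. Tumour cells grown under the drug are known to acquire resistance through export by ABC transporters such as P-glycoprotein, through drug-reducing enzymes, through storage of the weakly basic drug in acidic vesicles, and through changes in apoptosis and cell cycle control.

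Both Stylo parent arrays lay on 1 slide and both Star parent arrays on another, so line and slide cannot be told apart. The Stylo parent arrays were dim: the processed signal had a 75th percentile of 88.8 and 69.5 there and of 374 and 333 on the Star parent arrays, and 47.4% and 46.7% of their gene spots were well above background, against 59.5% and 58.6%. The top 100 spots took up 32.4% and 33.7% of all signal on the Stylo parent arrays and 15.5% and 16.3% on the Star parent arrays. Replicate arrays correlated at 0.990 and 0.982 across tested probes, and arrays of different lines at 0.818 to 0.830. A level below is the log2 processed signal of a probe relative to the 75th percentile of its array, and a change is the level in Star parent minus that in Stylo parent, with the standard error (SE) of the fit and n = 2 arrays per line. Since subtracting a constant leaves the shape of the signal as it was, every change was also computed after quantile normalization, which gives all arrays the same distribution. To clear the background means to be flagged well above it by the scanner software. A gene is said to have risen or fallen where both scalings gave a change of at least 2-fold in that direction with an adjusted p under 0.05 (limma, Benjamini-Hochberg over 25580 tested probes). Any other gene is said not to have passed, even where 1 of the scalings alone gave a call. Pairs of changes below give first the value at the 75th percentile with its SE and then the value after quantile normalization. Among the genes named below that passed, the largest adjusted p was 0.0195 at the 75th percentile and 0.0411 after quantile normalization.

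The median change depended on how bright a probe was. Over 10 equal groups of the 18912 probes well above background on all 4 arrays, ordered by mean level, it ran from -1.28 in the dimmest group through 0.19 in the fourth to -1.59 in the brightest. After quantile normalization the brightest group stood at -0.22 and the dimmest at -1.14. In the dimmest group, 12 probes were higher and 1144 lower at the 75th percentile. A dim probe passed on the Stylo parent arrays only above a floor of -3.31 and -3.14, whereas on the Star parent arrays the floor was -5.13 and -4.99, so falls could be followed to lower levels than rises.

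**Figure D1:**
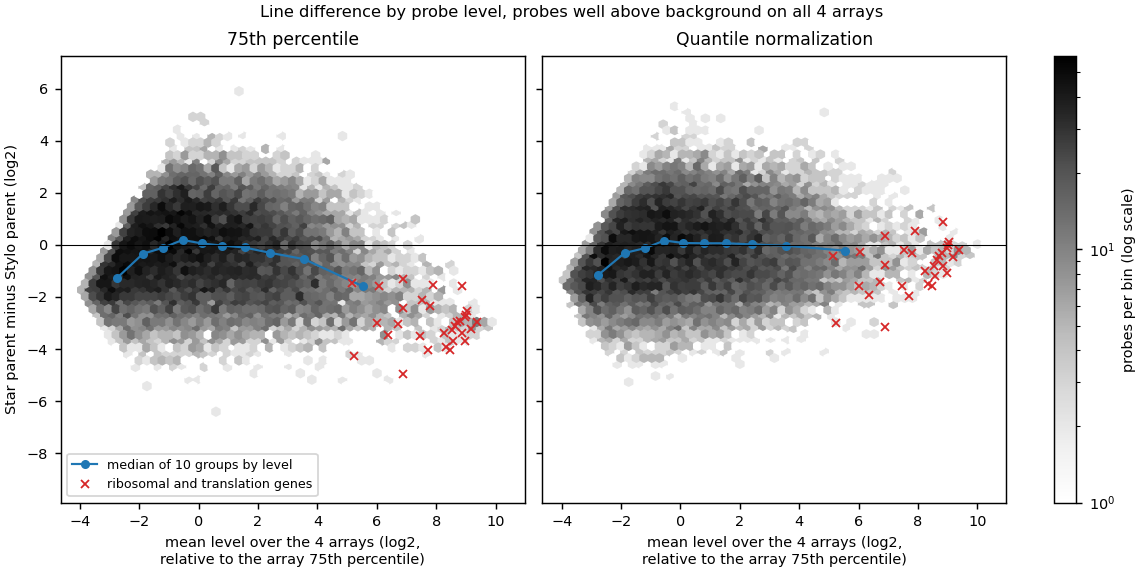
Change of each probe (Star parent minus Stylo parent, log2) against its mean level over the 4 arrays (log2, relative to the array's 75th percentile), for 18912 probes well above background on all 4, at the 75th percentile (left) and after quantile normalization (right). Grey marks the number of probes per bin on a log scale, blue points the median of each of 10 groups by level and red crosses the 30 ribosomal protein and translation genes; the brightest group sits at -1.59 on the left and at -0.22 on the right.

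Of the 25580 tested probes, 57.4% were called at the 75th percentile, 6594 higher (25.8%) and 8099 lower (31.7%) in Star parent, and 8178 were higher (32.0%) and 6555 lower (25.6%) after quantile normalization. The split moved further with other choices: 8606 higher and 6223 lower with median scaling, 8226 and 6518 with the percentile of detected probes, 11321 and 3764 with spike-in scaling and 4014 and 10764 with normexp background correction. A gene symbol could be given to 1507 of the tested probes, which stand for 931 genes. Of these genes, 198 rose (21.3%) and 254 fell (27.3%) under both scalings. Each of the 198 genes higher at the 75th percentile was also higher after quantile normalization, whereas 112 of the 366 lower ones were not lower there. On 738 genes well above background on all 4 arrays, 120 rose (16.3%) and 217 fell (29.4%), and their median change was -0.67 at the 75th percentile and -0.21 after quantile normalization. The counts for gene groups below are over such genes and are to be read against these 2 shares, since a gene that passed the filter through 1 line alone had to differ. In bulk RNA, fewer cells of a type and less RNA per cell cannot be told apart.

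The largest rise among them was in LGALS9, which encodes galectin-9, a secreted carbohydrate-binding protein that acts on immune cells. Its level was -2.52 and -2.36 on the Stylo parent arrays and 4.06 and 3.34 on the Star parent arrays, a change of 6.14 ± 0.55 and 6.46. The Star parent arrays lay far above both Stylo parent arrays, with no overlap. Arrays of the 2 lines did not overlap for 89.6% of the tested named genes, so a lack of overlap is the usual state here.

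GCG, the proglucagon gene of gut and pancreatic endocrine cells, came next. Its level was -2.05 and -2.68 on the Stylo parent arrays and 2.54 and 2.61 on the Star parent arrays, a change of 4.94 ± 0.22 and 5.19. STOM, a membrane scaffold protein of lipid rafts, was at 0.46 and 0.51 on the Stylo parent arrays and 4.68 and 4.85 on the Star parent arrays, a change of 4.28 ± 0.10 and 4.62. STOM was thus already near the 75th percentile in the sensitive line, while GCG and LGALS9 were dim there.

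ATP2A2, the calcium pump of the endoplasmic reticulum, changed by 3.35 ± 0.18 and 3.53, with 5 probes that ran from 0.39 to 3.35. FXYD6, a regulatory subunit of the sodium-potassium pump, changed by 3.55 ± 0.12 and 3.75, and all 4 of its probes were positive, from 1.72 to 4.16.

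The other large rises were in IGF2R, the receptor that carries mannose 6-phosphate-tagged enzymes to the lysosome (3.97 ± 0.10 and 4.41), SGSH, a lysosomal sulfatase (3.48 ± 0.12 and 3.58), PRKCD, a protein kinase C isoform (3.37 ± 0.15 and 3.68), MYH9, the heavy chain of non-muscle myosin IIA (3.24 ± 0.19 and 3.87), CCND1, the G1 cyclin D1 (3.16 ± 0.21 and 3.71), and FBN1, the microfibril protein fibrillin-1 (3.02 ± 0.09 and 3.44). IGF2R was the brightest of the lysosomal genes among them, at 1.20 and 1.38 on the Stylo parent arrays and 5.30 and 5.24 on the Star parent arrays.

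The largest fall was in MAL, a raft protein of apical transport in epithelial cells. Its level was 1.38 and 1.34 on the Stylo parent arrays and -4.51 and -4.33 on the Star parent arrays, a change of -5.78 ± 0.10 and -5.66. DCN, the matrix proteoglycan decorin, was at 1.07 and 1.07 on the Stylo parent arrays and -4.49 and -4.32 on the Star parent arrays, a change of -5.47 ± 0.10 and -5.37. Both genes had 2 tested probes, which fell together, and both lay close to the floor in the resistant line.

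KLK1, tissue kallikrein, was at 1.77 and 1.60 on the Stylo parent arrays and -3.06 and -3.91 on the Star parent arrays, a change of -5.17 ± 0.27 and -5.05. PLAU, the urokinase plasminogen activator, was at 4.58 and 4.14 on the Stylo parent arrays and 0.02 and -0.42 on the Star parent arrays, a change of -4.56 ± 0.21 and -4.12. WNT5A, a ligand of non-canonical Wnt signalling, was at 3.33 and 4.05 on the Stylo parent arrays and -0.53 and -0.93 on the Star parent arrays, a change of -4.42 ± 0.38 and -4.10. For these 3 genes both Stylo parent arrays lay above both Star parent arrays by more than the spread within either line.

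CA2, a cytosolic carbonic anhydrase, was at 4.30 and 4.49 on the Stylo parent arrays and -2.14 and -0.16 on the Star parent arrays, so that its 2 Star parent arrays differed from each other by more than its Stylo parent arrays did; the change was -5.54 ± 0.59 and -5.12. SHOX, a homeobox gene, was at 6.17 and 5.35 on the Stylo parent arrays and -2.73 and 2.72 on the Star parent arrays, with Star parent arrays that lay far apart, and changed by -5.76 ± 1.62 and -4.97. Without Stylo parent replicate 1 or 2, SHOX no longer passed (-5.35 and -6.18). The remaining large falls were in MT4, a metallothionein of stratified epithelium (-4.52 ± 0.35 and -4.42), PODXL, a sialomucin (-4.12 ± 0.29 and -4.04), GAD2, a glutamate decarboxylase (-4.03 ± 0.24 and -3.93), LOC476445 (-4.72 ± 0.27 and -4.43) and the olfactory receptor OR52N2G (-4.28 ± 1.24 and -4.20). OR52N2G lost its call when any 1 of the 4 arrays was left out, with changes of -4.00 to -4.57. Of the 3 PODXL probes, 1 stood at 0.96.

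**Figure D2:**
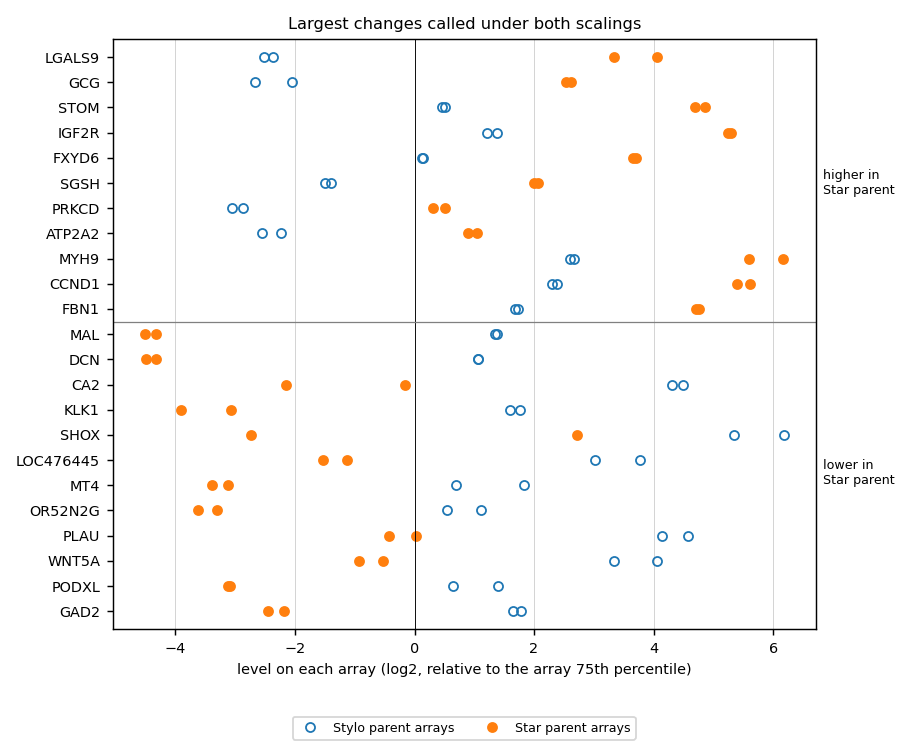
Level on each array (log2, relative to the array's 75th percentile) of 11 of the largest rises and the 12 largest falls that passed under both scalings, with open circles for the Stylo parent arrays and filled circles for the Star parent arrays. The lines separate for every gene shown, while SHOX and CA2 have Star parent arrays far apart.

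Probes that could not be named here also changed, and those with the largest changes well above background on all 4 arrays were read. The probe for transcript ENSCAFT00000038680 changed by 6.10 ± 0.10 and that for TC50117 by 6.05 ± 0.09. The probe for DR107228 changed by -8.62 ± 0.60 and that for ENSCAFT00000020746 by -6.56 ± 0.13. These falls were larger than that of MAL, and the rises were close to that of LGALS9.

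Transcript levels of part of the drug efflux and vault genes were higher in the resistant line. ABCB1 encodes P-glycoprotein, which pumps anthracyclines out of the cell. Its level was 1.04 and 1.16 on the Stylo parent arrays and 3.58 and 3.66 on the Star parent arrays, a change of 2.52 ± 0.11 and 2.78, or 5.73-fold at the 75th percentile. MVP, the major protein of cytoplasmic vault particles, changed by 2.25 ± 0.24 and 2.31, and ABCC5, a pump of organic anions and nucleotide analogues, by 1.51 ± 0.19 and 1.53. ABCC1, the glutathione-conjugate pump MRP1 that also carries doxorubicin, stood just under the 2-fold limit (0.98 ± 0.14 and 0.97), and ABCC4 did not pass (-0.73 ± 0.23 and -0.73). Of the 5 transporter and vault genes measured on all 4 arrays, 3 rose and 0 fell.

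In a list of doxorubicin-reducing, quinone-cycling and related oxidoreductase enzymes, 3 of 7 rose and 1 fell. AKR1A1 and POR, also on this list, were tested and did not pass. TXNRD1, the thioredoxin reductase that also reduces quinones, was at 3.93 and 3.69 on the Stylo parent arrays and 6.31 and 6.57 on the Star parent arrays, a change of 2.64 ± 0.15 and 3.53. ALDH3A1, an aldehyde dehydrogenase, was at 3.16 and 3.62 on the Stylo parent arrays and 5.25 and 5.57 on the Star parent arrays, a change of 2.02 ± 0.19 and 2.67. CYP1B1, a cytochrome P450, was close to the limit (1.02 ± 0.13 and 1.07) and fell under it without Stylo parent replicate 2 (0.92) or Star parent replicate 1 (0.93). NOS3, the endothelial nitric oxide synthase, fell (-2.69 ± 0.10 and -2.59). CYB5R3, the cytochrome b5 reductase, was not well above background on the Stylo parent arrays and was at least 5.89-fold higher in Star parent. Such a bound sets the bright line's mean against the higher, on each array of the dim line, of the probe's own signal and the lowest signal well above background.

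HMOX1, the haem oxygenase induced by oxidative stress, was well above background on 1 Stylo parent array and changed by 2.88 ± 0.20 and 3.22. FTL, the ferritin light chain, fell (-3.82 ± 0.11 and -1.54), as did the redox selenoprotein gene SELENOT (-2.98 ± 0.19 and -1.16). On all 4 arrays 0 of 12 members rose and 2 fell. The bright genes FTH1 (-0.76 ± 0.20 and 1.49), GPX1 (-0.48 ± 0.20 and 1.34), PRDX1 (-1.80 ± 0.09 and 0.67) and SELENOW (-1.15 ± 0.14 and 1.03) changed sign between the scalings, and no direction is given for them. Without Stylo parent replicate 2 SELENOW stood at -0.97 at the 75th percentile.

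Apoptosis genes moved both ways. BCL2, the founding inhibitor of mitochondrial apoptosis, was at -0.53 and -0.80 on the Stylo parent arrays and 1.23 and 1.51 on the Star parent arrays, a change of 2.03 ± 0.22 and 2.09. CASP9, the initiator caspase of the apoptosome, rose as well (1.13 ± 0.12 and 1.12), but with normexp background correction it stood at -0.27. The 5 regulators that fell were BIRC5, or survivin (-4.51 ± 0.44 and -3.73), PMAIP1, the BH3-only protein NOXA (-2.84 ± 0.14 and -2.54), DIABLO, which counters the IAP proteins (-2.26 ± 0.22 and -2.06), XIAP, the main caspase-blocking IAP (-1.75 ± 0.14 and -1.70), and CASP8, the initiator caspase of death receptors (-1.44 ± 0.28 and -1.40). Pro-apoptotic and anti-apoptotic members thus stood on both sides, with 2 of 18 genes up and 5 down. BAX (0.74 ± 0.19 and 1.05), BAK1 (0.06 ± 0.13 and 0.21), MCL1 (-0.39 ± 0.10 and 0.12) and MDM2 (-0.25 ± 0.19 and -0.06), which bind or regulate the same pathway, did not pass, and MCL1 changed sign between the scalings.

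Of 5 cell cycle genes, 1 rose and 3 fell. CCND1 was at 2.38 and 2.30 on the Stylo parent arrays and 5.40 and 5.61 on the Star parent arrays. BIRC5, which also serves chromosome segregation, was at 5.80 and 5.77 on the Stylo parent arrays and 1.40 and 1.14 on the Star parent arrays, and CCNB2, the mitotic cyclin B2, was at 5.10 and 5.20 on the Stylo parent arrays and 2.18 and 2.22 on the Star parent arrays, a change of -2.95 ± 0.09 and -2.25. CDKN1B, the inhibitor p27 that holds cells in G1, also fell (-2.26 ± 0.16 and -2.27). TYMS, the S-phase enzyme thymidylate synthase, did not pass (0.11 ± 0.18 and 0.68). The D-type cyclin was therefore high and the mitotic genes low on the same Star parent arrays, with the G1 inhibitor low too.

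Few DNA repair genes could be measured. PRKDC, the catalytic subunit of the DNA-dependent kinase of end joining, rose (1.43 ± 0.10 and 1.45), from -1.24 and -1.14 on the Stylo parent arrays to 0.26 and 0.21 on the Star parent arrays. XRCC1, the scaffold of single-strand break repair, did not pass (-0.62 ± 0.10 and -0.27). On all 4 arrays 1 of 3 members rose and 1 fell.

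**Figure D3:**
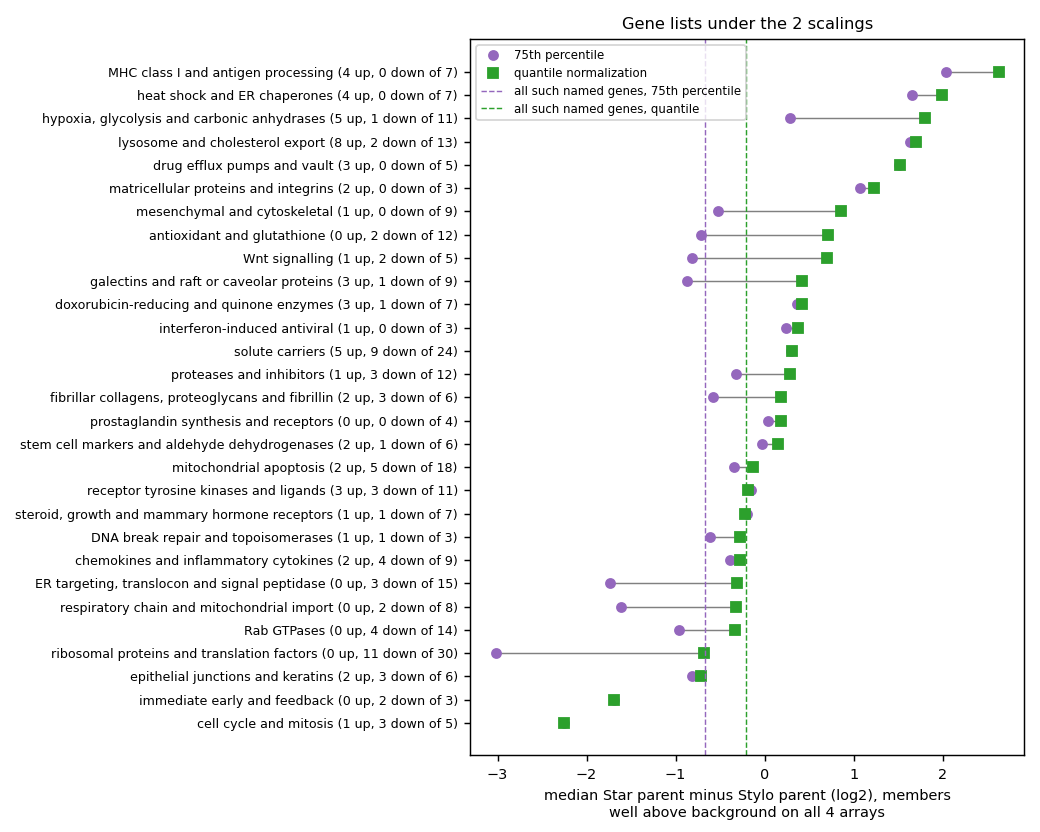
Median change of each gene list (log2) over members well above background on all 4 arrays, at the 75th percentile (circles) and after quantile normalization (squares), with dashed lines for the median of all 738 such named genes. Labels give how many members rose and fell under both scalings; MHC class I stands at 2.04 and 2.64 and cell cycle at -2.26 and -2.25, while the ribosomal list moves from -3.02 to -0.69.

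Antigen presentation genes of MHC class I rose in 4 of 7 members, and 0 fell. TAP1, a subunit of the transporter that loads peptides into the endoplasmic reticulum, was at 1.92 and 1.83 on the Stylo parent arrays and 4.66 and 4.57 on the Star parent arrays, a change of 2.74 ± 0.09 and 3.17, and its partner TAP2 changed by 2.59 ± 0.15 and 2.64. The dog class I genes DLA-64 (2.28 ± 0.10 and 3.09) and DLA88 (2.04 ± 0.10 and 2.67) rose with them, DLA88 from 3.34 and 3.30 on the Stylo parent arrays to 5.45 and 5.27 on the Star parent arrays. DLA-64 and DLA88 are near-identical in parts of their sequence, and their probes may share transcripts. The tapasin gene TAPBP (0.37 ± 0.17 and 0.45), CANX, the chaperone calnexin (0.33 ± 0.09 and 0.63), and the immunoproteasome gene PSMB9 (0.18 ± 0.11 and 0.44) did not pass. The MHC class II gene listed as HLA-DRB1 did not clear the background in Stylo parent and was at least 3.06-fold higher in Star parent, but stood at -0.89 with normexp correction, an alternative described below.

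Among interferon-induced genes, MX1, a GTPase that blocks viral replication, was at -3.68 and -3.59 on the Stylo parent arrays and 2.64 and 2.65 on the Star parent arrays. It did not clear the background in Stylo parent and was at least 58.4-fold higher in Star parent, or at least 81.8-fold after quantile normalization. OAS1, the oligoadenylate synthetase that activates RNase L, changed by 1.62 ± 0.19 and 1.75, and EIF2AK2, the kinase PKR, well above background on 1 Stylo parent array, by 1.63 ± 0.27 and 1.96, or -0.65 with normexp correction. Of the 3 interferon genes measured on all 4 arrays, 1 rose and 0 fell. OAS2 (-0.37 ± 0.35 and 0.37) did not pass and changed sign between the scalings.

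The prostaglandin and inflammatory genes went in several directions. PTGS2, the inducible cyclooxygenase, was at 2.17 and 1.81 on the Stylo parent arrays and -0.82 and -6.24 on the Star parent arrays and was well above background on 1 Star parent array; its change was -5.53 ± 1.58 and -5.38 and lost its call without Stylo parent replicate 1 (-5.35) or 2 (-5.70). PTGDS, the prostaglandin D synthase, was at least 8.79-fold higher and the receptor PTGER2 at least 2.56-fold higher in Star parent. With normexp correction the first stood at 0.46 and PTGER2 at -0.98. CXCL8, the neutrophil chemokine interleukin-8, was at 5.21 and 4.92 on the Stylo parent arrays and -0.70 and 1.97 on the Star parent arrays, with Star parent arrays far apart, and its fall (-4.43 ± 1.29 and -3.82) lost its call without Stylo parent replicate 1 (-4.28) or 2 (-4.57) or Star parent replicate 1 (-3.09). IL12A (-2.88 ± 0.17 and -2.87) and IL5 (-2.64 ± 0.11 and -2.65), cytokines of T cell responses, also fell.

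ICAM1, the adhesion molecule bound by leukocytes, rose (1.36 ± 0.11 and 2.09), and so did the eosinophil chemokine CCL24 (1.12 ± 0.13 and 1.12). CCL5, a T cell chemokine, was at least 3.30-fold higher in Star parent, but stood at -0.71 with normexp correction. TLR2, a receptor for bacterial lipopeptides, was at least 1.43-fold higher, but stood at -1.12 with that correction. On all 4 arrays 2 of 9 chemokine and cytokine genes rose and 4 fell.

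Lysosomal genes rose in 8 of 13 members well above background on all 4 arrays, and 2 fell. SGSH, which removes sulfate from heparan sulfate, was at -1.39 and -1.50 on the Stylo parent arrays and 1.99 and 2.07 on the Star parent arrays. NPC1, which exports cholesterol from late endosomes, was at -1.26 and -1.35 on the Stylo parent arrays and 1.59 and 1.66 on the Star parent arrays, a change of 2.93 ± 0.27 and 3.01. ARSA, arylsulfatase A, was at 0.38 and 0.55 on the Stylo parent arrays and 2.89 and 3.30 on the Star parent arrays, a change of 2.63 ± 0.16 and 2.81. In each case the Star parent arrays lay well above the Stylo parent arrays.

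The other rises of the list were in CTSD, the aspartic protease cathepsin D (1.64 ± 0.24 and 1.70), GLB1, beta-galactosidase (1.83 ± 0.11 and 2.04), CLN3, a lysosomal membrane protein (1.69 ± 0.18 and 1.73), and IDS, iduronate sulfatase (1.23 ± 0.37 and 1.28). GUSB, beta-glucuronidase, well above background on 1 Stylo parent array, changed by 1.82 ± 0.38 and 2.01. PPT1, a palmitoyl thioesterase, fell and was at 2.93 and 2.75 on the Stylo parent arrays and 0.90 and 1.38 on the Star parent arrays, a change of -1.70 ± 0.19 and -1.41. FUCA1, alpha-fucosidase, was bright in both lines and did not pass (0.10 ± 0.09 and 1.11).

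Heat shock genes rose in 4 of 7 members, and 0 fell. HSPB1, the small heat shock protein HSP27, was at 4.91 and 5.24 on the Stylo parent arrays and 6.77 and 7.35 on the Star parent arrays, a change of 1.98 ± 0.23 and 3.25. The gene listed as HSP70, an inducible chaperone, changed by 2.65 ± 0.10 and 2.78, HSPB8, a small heat shock protein of selective autophagy, by 1.97 ± 0.18 and 1.99, and HSPA4, a nucleotide exchange factor of the HSP70 system, by 1.65 ± 0.11 and 2.66. HSP90B1, the chaperone of the endoplasmic reticulum, changed sign between the scalings (-0.14 ± 0.36 and 1.38), as did SERPINH1, the collagen chaperone (-0.71 ± 0.09 and 0.63).

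**Figure D4:**
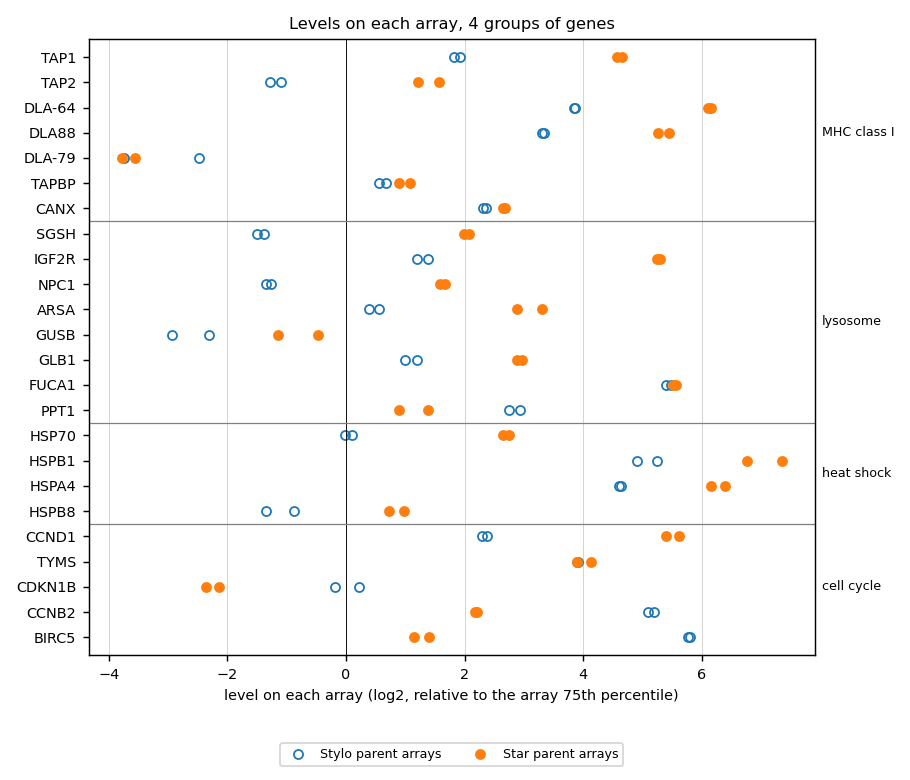
Level on each array (log2, relative to the array's 75th percentile) of genes of MHC class I, the lysosome, heat shock and the cell cycle, with open circles for the Stylo parent arrays and filled circles for the Star parent arrays. TAP1, NPC1 and HSPB1 stand higher on the Star parent arrays, PPT1, CCNB2 and BIRC5 lower, and FUCA1 and TYMS overlap or nearly so.

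Genes of hypoxia and glycolysis rose in 5 of 11 members and fell in 1, CA2. GAPDH, the glycolytic dehydrogenase, was at 7.13 and 7.16 on the Stylo parent arrays and 8.54 and 8.52 on the Star parent arrays, a change of 1.39 ± 0.36 and 3.29. ALDOC, an aldolase, changed by 1.81 ± 0.09 and 2.39, the vasodilator peptide gene ADM by 1.84 ± 0.08 and 2.30, the glucose transporter SLC2A1 by 1.53 ± 0.12 and 2.13 and HIF1A, the oxygen-sensing transcription factor subunit, by 1.47 ± 0.09 and 1.81. VEGFA (0.18 ± 0.21 and 0.99) and CA9 (-0.42 ± 0.15 and -0.37), known targets of that factor, did not pass. The list median moved from 0.29 to 1.81 between the scalings, since several of its genes are bright.

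Epithelial genes did not move one way. JUP, plakoglobin of desmosomes and adherens junctions, rose (1.45 ± 0.16 and 1.85), as did TJP1, the tight junction protein ZO-1 (1.40 ± 0.12 and 1.50). KRT14, a basal keratin, fell (-2.00 ± 0.18 and -1.91), as did GJA1, connexin 43 (-2.38 ± 0.15 and -2.25). CLDN3, a tight junction claudin, was well above background on 1 Star parent array and changed by -4.27 ± 0.21 and -4.30. CDH1, E-cadherin, was at -5.02 and -5.18 on the Stylo parent arrays and -3.68 and -3.90 on the Star parent arrays and was not well above background on the Stylo parent arrays. The floor there was too high to bound its fold, so its change of 1.31 ± 0.15 and 2.38 was given no direction. On all 4 arrays 2 of 6 members rose and 3 fell.

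Among mesenchymal and cytoskeletal genes 1 of 9 rose, MYH9, and 0 fell. MYH9 was at 2.60 and 2.67 on the Stylo parent arrays and 5.60 and 6.16 on the Star parent arrays. VIM, vimentin, was among the brightest genes of both lines, at 9.17 and 9.36 on the Stylo parent arrays and 7.92 and 7.95 on the Star parent arrays, and changed sign between the scalings (-1.33 ± 0.11 and 0.98), as did ACTB (-0.52 ± 0.11 and 1.65). CDH2, N-cadherin (0.44 ± 0.12 and 0.86), and SNAI2, a repressor of E-cadherin (0.43 ± 0.11 and 0.64), did not pass.

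Matrix genes split. COL1A1, the first chain of collagen I, was at 1.30 and 1.53 on the Stylo parent arrays and -1.62 and -1.57 on the Star parent arrays, a change of -3.01 ± 0.12 and -2.93, while its partner chain COL1A2 did not pass (0.91 ± 0.10 and 2.44). BGN, the proteoglycan biglycan, rose (2.60 ± 0.15 and 2.72) whereas its relative decorin was among the largest falls, and DPT, dermatopontin, which binds decorin, fell too (-2.07 ± 0.16 and -2.06). On all 4 arrays 2 of 6 collagen and proteoglycan genes rose and 3 fell. TNC, tenascin-C, rose (1.55 ± 0.14 and 1.58). CD44, the hyaluronan receptor used to sort the stem cells, was at 0.80 and 1.14 on the Stylo parent arrays and 1.99 and 2.09 on the Star parent arrays, a change of 1.07 ± 0.14 and 1.23, which dropped under 2-fold without Stylo parent replicate 1 (0.90). CAV1, the caveola coat protein, rose (1.05 ± 0.09 and 1.93).

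PLG, plasminogen, the protein that PLAU activates, was at 0.75 and 0.78 on the Stylo parent arrays and -6.41 and -5.89 on the Star parent arrays. It did not clear the background in Star parent and was at least 56.6-fold lower there. SLPI, an inhibitor of neutrophil elastase, fell as well (-2.26 ± 0.09 and -2.23). On all 4 arrays 1 of 12 protease and inhibitor genes rose and 3 fell.

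In growth factor signalling, HGF, the ligand of MET, rose (2.11 ± 0.13 and 2.15), as did KITLG, the ligand of KIT (1.61 ± 0.21 and 1.65), while MET itself did not pass (0.32 ± 0.22 and 0.33). PDGFRB, a platelet-derived growth factor receptor (-2.36 ± 0.37 and -2.37), and ANGPT1, a ligand of TIE2 (-1.38 ± 0.14 and -1.36), fell. The receptor tyrosine kinase RET did not clear the background in Star parent and was at least 4.83-fold lower there. ERBB2, the HER2 receptor of breast cancer, did not pass (-0.82 ± 0.14 and -0.82). Of 11 members, 3 rose and 3 fell. In the Wnt list DKK3, a Dickkopf-related secreted protein, rose (1.13 ± 0.10 and 1.28) and the receptor FZD6 fell (-1.62 ± 0.12 and -1.58) beside WNT5A.

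Among hormone receptors, NR3C1, the glucocorticoid receptor, rose (1.92 ± 0.27 and 2.13), and LTF, lactoferrin, a milk protein of the mammary list, fell (-3.07 ± 0.16 and -3.04). PGR, the progesterone receptor, did not pass (-0.68 ± 0.10 and -0.38), and ESR1, the oestrogen receptor, was not well above background on both arrays of either line and was not tested. The signalling brake SOCS3 (-2.95 ± 0.26 and -2.94) and the immediate early factor FOSB (-1.69 ± 0.18 and -1.69) fell, and MYC did not pass (-0.34 ± 0.15 and -0.23).

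Of 24 genes with a solute carrier symbol, 5 rose and 9 fell. The list was drawn by symbol and also holds SLC9A3R1 and SLC9A3R2, which encode scaffold proteins and not carriers. SLC7A11, the cystine importer that feeds glutathione synthesis, was at -1.21 and -0.69 on the Stylo parent arrays and -3.75 and -3.94 on the Star parent arrays, a change of -2.89 ± 0.19 and -2.87. SLC3A2, its heavy chain, fell as well (-1.99 ± 0.15 and -1.44), and so did SLC7A5, a large neutral amino acid transporter that uses the same heavy chain (-1.21 ± 0.14 and -1.15), SLC7A1, an arginine and lysine importer (-2.10 ± 0.15 and -1.61), and SLC1A3, a glutamate importer (-2.90 ± 0.28 and -2.90). SLC1A1, another glutamate importer, was at least 3.71-fold higher in Star parent, where SLC1A3 was lower, but stood at -0.28 with normexp correction. SLC2A9, a urate transporter (1.48 ± 0.10 and 1.66), and SLC12A4, a potassium-chloride cotransporter (1.43 ± 0.15 and 1.54), rose. SLCO1B3, an organic anion importer, was at least 5.73-fold lower.

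Genes of the stem cell list gave 2 of 6 risen and 1 fallen. Besides CD44 and ALDH3A1, PROM1, the stem cell antigen CD133, was at -4.21 and -3.17 on the Stylo parent arrays and 0.06 and 0.83 on the Star parent arrays; it did not clear the background in Stylo parent and was at least 12.7-fold higher in Star parent. SOX9, a transcription factor of mammary stem cells, fell (-2.20 ± 0.20 and -2.09), and BMI1 (-0.82 ± 0.11 and -0.78) and THY1 (0.29 ± 0.13 and 0.54) did not pass.

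For the brightest gene groups the scaling set the size of the change. All 30 ribosomal protein and translation genes were lower at the 75th percentile, with a median of -3.02, where 43.5% of all named genes on the 4 arrays and 1187 of 1892 probes of the brightest group were lower, and 11 of them also passed after quantile normalization, where the median was -0.69. RPL21, a large-subunit protein, was at 9.28 and 9.47 on the Stylo parent arrays and 4.46 and 4.35 on the Star parent arrays, a change of -4.97 ± 0.50 and -3.16, and EEF1A1, the elongation factor that brings aminoacyl-tRNA to the ribosome, changed by -4.27 ± 0.22 and -3.00. RPL37 (-1.58 ± 0.19 and 0.89) and RPL3 (-2.54 ± 0.10 and 0.13) changed sign. The brightest of the 10 groups of probes moved from -1.59 to -0.22 between the same scalings, and how much of the ribosomal shift belongs to the line was not tested.

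The scaling also changed the counts of 3 other groups, again beside 43.5% of such named genes lower at the 75th percentile. Genes of protein entry into the endoplasmic reticulum were lower in 10 of 15 members at the 75th percentile, and 3 fell under both scalings: SEC61G, a translocon subunit (-3.70 ± 0.09 and -2.17), SPCS2, of the signal peptidase (-1.98 ± 0.11 and -1.59), and SSR1, of the translocon-associated complex (-1.73 ± 0.11 and -1.17). Respiratory chain and import genes were lower in 7 of 8 members at the 75th percentile, and 2 fell under both, TIMM8A, an import chaperone (-3.22 ± 0.11 and -2.99), and COX17, a copper chaperone of cytochrome oxidase (-2.76 ± 0.12 and -1.46). Of 14 Rab and related small GTPases, 4 fell, led by RAB9A of late endosomes (-2.75 ± 0.12 and -1.99), RAB5A of early endosomes (-1.71 ± 0.16 and -1.67) and RAC1, an actin regulator (-1.71 ± 0.11 and -1.58), and 0 rose. RAB22A fell as well (-1.17 ± 0.19 and -1.18), but dropped under 2-fold without Star parent replicate 2 (-0.88).

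Some genes were well above background in 1 line alone. Of the named genes, 116 were so on both Star parent arrays and neither Stylo parent array, and 23 the other way round. Over all tested probes the numbers were 4693 and 341, and the floor was higher on the dim Stylo parent arrays. SMOC2, a matricellular calcium-binding protein, was at -3.38 and -3.81 on the Stylo parent arrays and 2.97 and 2.95 on the Star parent arrays and at least 72.8-fold higher in Star parent. DAG1, dystroglycan, the laminin receptor, was at least 14.6-fold higher, and DIO2, which activates thyroid hormone, at least 10.4-fold higher. In the other direction HAMP, the iron hormone hepcidin, was at 1.17 and 1.09 on the Stylo parent arrays and -5.47 and -5.54 on the Star parent arrays and at least 73.0-fold lower in Star parent. CA3, a carbonic anhydrase, was at least 19.3-fold lower, CYBB, the catalytic subunit of the phagocyte NADPH oxidase, at least 15.2-fold and KLRA1, a receptor of natural killer cells, at least 14.4-fold.

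The other scalings ended some of these calls. In log2, the spike-in median stood 3.90 and 4.92 above the 75th percentile on the Stylo parent arrays, and 3.62 and 3.22 on the Star parent arrays. Spike-in scaling therefore carries the gap between the 2 Stylo parent arrays into every probe. Scaling to the spike-in probes shifted the median change of all tested probes from -0.15 to 0.84, and the falls of KRT14 (-1.01), DPT (-1.09), ANGPT1 (-0.39), FZD6 (-0.63), FOSB (-0.71), XIAP (-0.77), PPT1 (-0.71), RAB5A (-0.72), RAC1 (-0.72), RAB22A (-0.18), SPCS2 (-1.0) and SSR1 (-0.75) did not pass there. Normexp models the background around each spot, was run with an offset of 50 and shifted that median to -0.74. The median processed signal was 8.95 and 7.78 on the Stylo parent arrays and 29.7 and 26.9 on the Star parent arrays. Such an offset lifts dim probes toward the 75th percentile more on the dimmer arrays. A dim gene's rise that ended or changed sign with normexp was therefore not separately checked by it. Normexp ended the rises of ABCC5 (0.39), BCL2 (0.94), CYB5R3 (0.06), HMOX1 (0.36), PRKDC (0.54), TNC (0.87), PRKCD (1.00), DAG1 (0.39) and DIO2 (0.19). ABCB1, MVP, TAP1, TAP2, NPC1, ARSA, HSPB1, CCND1, BIRC5, DCN and MAL kept their direction and call under every scaling tried and under normexp.

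Markers of other cell types were read on the same arrays as sums of signal relative to the 75th percentile. The sums include probes at background, which lies higher on that scale on the Stylo parent arrays. Of 15 leukocyte markers 4 cleared the background on at least 1 of the 4 arrays, and CD4, CD8A, CD28 and MS4A1 were on none. The summed level of 7 fibroblast markers was 1652 and 1900 on the Stylo parent arrays and 331 and 358 on the Star parent arrays; 0 of 7 rose and 4 fell, COL1A1, DCN, DPT and PDGFRB. The brightest of them, S100A4, was at 10.61 and 10.82 on the Stylo parent arrays and 7.56 and 7.64 on the Star parent arrays and did not pass (-3.12 ± 0.11 and -0.39). Basal markers summed to 3.96 and 4.90 against 1.17 and 1.31, and luminal markers to 7.48 and 8.21 against 4.21 and 4.48. The 9 hepatocyte markers summed to 4.29 and 4.27 against 0.235 and 0.232, with HAMP and PLG low in Star parent and APOH, F7, F8, F9 and CYP3A12 clearing the background on none of the 4 arrays. Endothelial markers summed to 12.1 and 15.2 against 4.15 and 5.43. On all 4 arrays 0 of 3 rose and 2 fell, NOS3 and THBD. Of the 5 tested, 2 rose, but neither was well above background on all 4 arrays, and both were negative with normexp correction. These sums hold DCN, KRT14 and PLG themselves, so they are no separate reading of those genes, and the fibroblast sum is nearly all S100A4. The luminal sum is mostly PGR, which did not pass. Whether cells of other types had a part in the results was not tested. Of the epithelial markers, 2 basal ones (KRT14 and MME) and 2 luminal ones (LTF and PGR) were measured on all 4 arrays. CDH1 was measured in Star parent alone, and ESR1 in neither line.

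The sorted cells offered a second comparison of the same 2 lines, on the same slides but on other arrays. It asked whether a line difference of the unsorted cells was also found in sorted cells. Star CSC and Stylo CSC differed in 28.2% of the tested probes, 3025 higher (11.8%) and 4194 lower (16.4%) in Star. Of the 6594 probes higher in Star parent, 1511 (22.9%) were also higher in Star CSC, which is 49.95% of the probes higher there, and 456 (6.92%) were lower. Of the 8099 lower in Star parent, 2513 (31.0%) were also lower in Star CSC, 59.9% of the probes lower there, and 320 (3.95%) were higher. The difference between the 2 line differences, the interaction, passed for 52.6% of the tested probes. Line and slide stay together in both pairs. The sorted arrays were not dim, with a 75th percentile of 311 and 297 for Stylo CSC and of 540 and 469 for Star CSC. The interaction therefore also holds the dimness of the Stylo parent arrays, and sorting and array quality cannot be told apart in it.

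Of the 11 largest rises described above, 6 were also higher in Star CSC, 1 was lower and 4 did not pass. GCG changed by 7.53 ± 0.22 in sorted cells, LGALS9 by 2.77 ± 0.55, FXYD6 by 2.78 ± 0.12 and CCND1 by 2.13 ± 0.21. IGF2R (0.10 ± 0.10), ATP2A2 (-0.15 ± 0.18), MYH9 (-0.60 ± 0.19) and SGSH (0.61 ± 0.12) did not pass there. FBN1, higher in Star parent, was lower in Star CSC (-1.43 ± 0.09), and the interaction was 4.45 ± 0.13 (limma, adjusted p = 4.1e-05).

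Of the 12 largest falls, 8 were also lower in Star CSC and 4 did not pass. MAL changed by -7.71 ± 0.10 in sorted cells, DCN by -7.00 ± 0.10, WNT5A by -5.59 ± 0.38 and COL1A1, outside the 12, by -6.28 ± 0.12. PLAU, by contrast, stood at 0.09 ± 0.21 in sorted cells, with an interaction of -4.65 ± 0.29 (limma, adjusted p = 6.8e-05). CA2 had an interaction of -4.22 ± 0.84.

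Of the 5 transporter and vault genes, 1 was higher and 2 were lower in Star CSC. ABCB1 was higher there (2.41 ± 0.11), whereas ABCC1 was lower (-2.68 ± 0.14), with an interaction of 3.66 ± 0.19. MVP did not pass in sorted cells (-0.60 ± 0.24). TAP1 was higher in both pairs (1.16 ± 0.09 in sorted cells). BGN (-1.19 ± 0.15), JUP (-1.47 ± 0.16) and TNC (-1.40 ± 0.14) were higher in Star parent and lower in Star CSC, and SLPI (2.63 ± 0.09) and DPT (2.04 ± 0.16) lower in Star parent and higher in Star CSC.

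**Figure D5:**
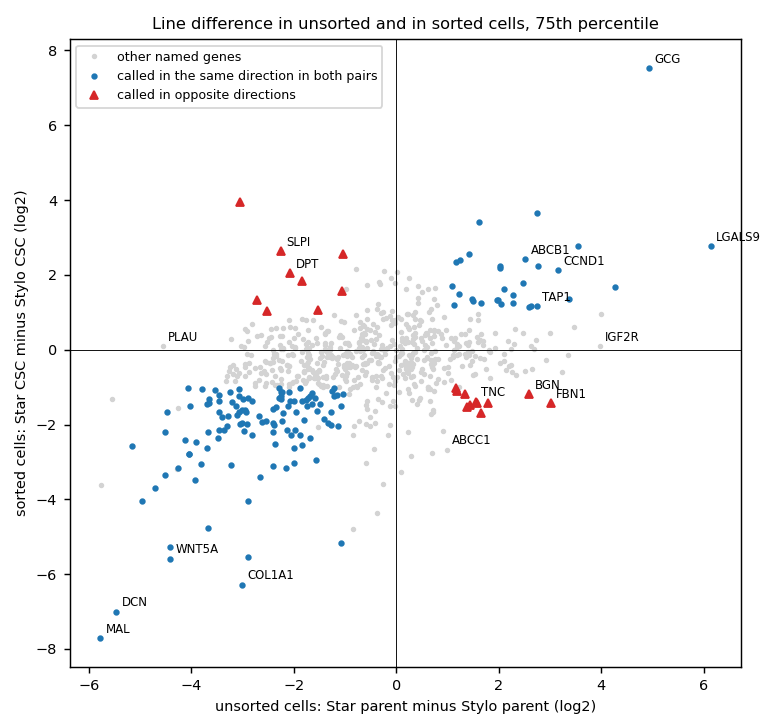
Line difference of each named gene well above background on all 4 unsorted arrays (log2, 75th percentile), in unsorted cells (Star parent minus Stylo parent, horizontal) and in sorted cells (Star CSC minus Stylo CSC, vertical). Blue points were called in the same direction in both pairs and red triangles in opposite directions; GCG, LGALS9 and ABCB1 lie at the upper right, MAL and DCN at the lower left, and PLAU and IGF2R near 0 on the vertical axis.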

How the data were processed

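The submitters' processing notes name Agilent Feature Extraction, version 11.5.1.1. The authors' deposited scanner files give a processed signal per spot as an intensity, with flags, per the file headers. The authors' deposited matrix holds log2 values, which matched the scanner files' log2 signal on the 75th-percentile scale, centred per probe, to an SD of at most 3.9e-07. Its centring hides levels, so it served as an alternative.

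Control spots and outlier-flagged spots were left out (40 tested probes had such a spot missing on a compared array), and 0 gene spots were saturated. Log2 signals were averaged per probe and scaled to the 75th percentile, and separately by quantile normalization. A probe was tested if well above background on both arrays of either line. limma 3.58.1 in R 4.3.3 fitted 4 group means on all 8 arrays (lmFit and eBayes), which share 1 spread per probe, and Benjamini-Hochberg adjustment ran over 25580 probes, two-sided. The fit was tested on simulated data. Alternatives were other scalings, normexp with an offset of 50 on the median signal, filters, thresholds, a replicate block and leaving out each array.

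Probe accessions without version were looked up in RefSeq's gene list for UU_Cfam_GSD_1.0, for names only, which named 2353 of 43603 probes (5.40%), for 1458 symbols. No genome positions or probe sequences were used here. The tested probe of highest mean level stands for its gene. Among 377 genes with more than 1 tested probe, 286 had probes of 1 sign and 13 had probes called in opposite directions, ACTB among them. Named were the 12 largest rises and falls well above background on all 4 arrays and called under both scalings, up to 4 called members of each list per direction and members that change sign between the scalings, the 5 largest bounds per direction, a fixed set of 15 genes, and genes of the first group whose probes disagree. A few genes that the rule chose are left out of the text without substitutes. Genes given as not passing beside these, and some called ones, were added after their values were seen. The members, lists and tests were chosen with earlier results of these data known.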

Additional observations from a re-analysis of the deposited data

Results flagged for a closer look

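The measured line difference was not the same on the unsorted and the sorted arrays. Only the Stylo parent arrays were dim, so sorting and array quality cannot be told apart here. For 13443 of the 25580 tested probes the interaction (Star parent minus Stylo parent, less Star CSC minus Stylo CSC) was at least 2-fold and passed in limma at the 75th percentile, and 13111 passed after quantile normalization.

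Genes named above whose line difference had opposite calls in the 2 pairs had interactions (log2) of BGN (3.79), DPT (-4.11), FBN1 (4.45), JUP (2.91), SLPI (-4.89), TNC (2.95). Genes below background on any of the 8 arrays were not considered, since their interaction is not measured.

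Among the other genes of the largest rises and falls and of the fixed set, a more positive line difference in unsorted cells was found for ABCC1 (3.66), ATP2A2 (3.50), CD44 (1.88), DCN (1.53), IGF2R (3.88), LGALS9 (3.38), MAL (1.93), MVP (2.85), MYH9 (3.84), PRKCD (2.03), SGSH (2.86), and STOM (2.60). A more negative one was found for CA2 (-4.22), GAD2 (-2.53), GCG (-2.60), KLK1 (-2.61), PLAU (-4.65), and PODXL (-1.70). Each of these interactions passed the interaction test over all tested probes. DCN (-5.47 unsorted, -7.00 sorted) and MAL (-5.78 unsorted, -7.71 sorted) were lower in Star in both pairs, by less in unsorted cells. Both lay close to the floor in Star parent. GCG was higher in Star in both pairs, by less in unsorted cells (4.94 unsorted, 7.53 sorted).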

How the results depend on the processing

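The number of probes called (14693) stayed within 1.5 times under each scaling, normexp, the deposited matrix (14675), the 4 arrays alone (14732), an intensity trend (14726), cyclic loess (14544) and spike-in scaling (15085). It was 26752 with no filter on dim probes, 27195 at an unadjusted p with no filter and 6812 at 4-fold; without the filter more probes are tested, and the last threshold is stricter. Leaving out 1 array gave 14290 to 14659. With the replicate number as a replicate block it was 14678, and no called gene named above lost its call. Deviations of arrays with equal numbers correlated at -0.07 to 0.07. With 2 arrays per group the deviations of a group mirror each other, so these values cannot tell whether such arrays share a culture or batch. Calls for the sorted pair went from 7219 to 6455 with quantile normalization and for the interaction from 13443 to 13111. Of 151 called genes named by the rule, 124 kept direction and call under the 5 other scalings and 88 under every alternative run. A sign change is given where either value was called, and 118 more were called under neither. With quantile normalization the changes became ACTB 1.65, ANXA2 1.23, ATP5F1A 0.71, COX8A 0.44, CYBA 0.02, FTH1 1.49, GPX1 1.34, HSP90B1 1.38, LDHB 0.04, LGALS3 0.42, PRDX1 0.67, RPL3 0.13, RPL37 0.89, SEC61A1 1.21, SELENOW 1.03, TIMP1 1.39, VIM 0.98. With cyclic loess they became ACTB 1.31, ATP5F1A 0.32, COX8A 0.12, FTH1 1.09, GPX1 1.06, HSP90B1 1.19, PRDX1 0.05, RPL37 0.32, SEC61A1 1.27, SELENOW 0.45, TIMP1 1.07, VIM 0.62. With normexp they became ACTB 1.10, ATP5F1A 0.50, CASP9 -0.27, CCL2 1.03, CCL5 -0.71, CCL7 -0.97, CD86 -1.57, CDH1 -1.66, CGN -1.17, COL2A1 -1.40, COX8A 0.43, CTSS -1.13, CXCL10 -1.39, CYBA 0.23, DDOST 1.26, EIF2AK2 -0.65, FLT3 -1.13, GPX1 1.30, HLA-DRB1 -0.89, HSP90B1 1.41, KDR -1.41, PPARA -1.07, PTGER2 -0.98, RAB27A 1.10, RPL37 0.05, SEC61A1 1.57, SELENOW 0.47, SELP -1.35, SERPINF1 1.15, SLC1A1 -0.28, SLC45A2 -0.67, SLC5A3 -0.42, SRP68 1.24, TIMP1 1.03, TIMP3 -1.22, TLR2 -1.12, TRAM1 1.39, VIM 0.10. The cause was not tested. The single arrays that ended a call of a gene not discussed above were Stylo parent replicate 1 for CCL7 (0.81), CD86 (0.99), KDR (0.99) and SELP (0.80), Stylo parent replicate 2 for ACAN (-0.90) and TIMP3 (0.87), Star parent replicate 1 for CCL7 (1.39) and CYBA (-0.96), and Star parent replicate 2 for SELP (0.99). Signal over background limits dim genes, most of all on the Stylo parent arrays.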
